A study of Mus musculus with 6 samples.

Results

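Proenkephalin (Penk) and 8 genes of enzymes that process or degrade enkephalins were followed across 6 arrays of sorted adipose tissue eosinophils. The members were the probe sets whose gene symbol on the array is exactly Penk, Cpe, Furin, Pcsk1, Pcsk7, Pam, Mme, Anpep or Dpp3, which gave 9 genes with 1 probe set each among the 17097 genes on the array. Eosinophils were sorted by FACS from the SVF (stromal vascular fraction, the non-adipocyte cells) of subcut AT of 3 WT and 3 Klf3-/- mice, 1 array per mouse. All were 12-week-old males on an FVB/NJ background, kept at 22 °C and born as littermates of crosses between heterozygotes. The Klf3 disruption was global, so every cell type of the Klf3-/- mice carried it, and it cannot be told apart in these data whether a difference arose in the sorted cells or from the tissue around them. The comparison asks which genes for secreted factors differ when the repressor KLF3 is missing, and Penk was 1 of the genes the study picked from these same arrays. Its difference between the genotypes is therefore no independent evidence for that choice.

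Enkephalins are short opioid peptides cut out of a larger precursor that enters the secretory pathway. Proprotein convertases cleave the precursor at pairs of basic residues, a carboxypeptidase trims the exposed basic residues, and further enzymes may amidate peptide ends. Once released, enkephalins act on opioid receptors and are broken down by peptidases on the cell surface and in the cytosol. In AT, methionine-enkephalin is known as a product of immune cells that promotes the beiging of white fat.

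KLF3 binds CACCC boxes in DNA, and 5′ ends of the member genes were searched for these letters as a description of sequence alone. RefSeq windows (assembly GRCm38.p6) of 250 bases before to 50 bases after each gene start were used for 7 of the members, all but Penk and Cpe, as 12 windows of which some overlap. CACCC or its reverse complement GGGTG was found in 11 of the 12 windows, compared with 57.5% of all 32851 windows of that length. Counted by gene it was found in 7 of 7, compared with 59.8% of 27025 genes. Shown are the boxes nearest an annotated start of Pam and Mme, which among the enzymes had the array profiles closest to that of Penk. Capitals mark the box. The Pam stretch is chr1:98095721-98095765 on the minus strand, with its box 99 or 113 bases upstream of the starts of its 2 windows. The outer bound of the Pam gene is at 98095853, so the box lies inside the gene as bounded there. The Mme stretch is chr3:63295724-63295768 on the plus strand, with its box 128 bases upstream of an inner start. Before the outermost Mme start, at 63295211, the window holds 1 box, 234 bases upstream. The window without a match is also of Mme.
Pam: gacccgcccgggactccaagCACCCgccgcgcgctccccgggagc
Mme: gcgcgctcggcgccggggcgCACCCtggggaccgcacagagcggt
A match is a description and not a bound site, and binding was not measured on these arrays.

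The deposited values were linear intensities, and the array medians ranged from 30.3 to 58.7, a 1.94-fold difference. Values were therefore taken to log2 and quantile-normalised between arrays, and values as deposited are given beside them. Olfactory receptor genes, which these cells should not express, gave a background level. It was 5.10 log2 units (34.2 on the linear scale), taken as the 95th percentile over the means of their 44 probe sets. Of 17 eosinophil markers, 12 were measured and 5 lay above that level, and the defining genes Siglecf, Ccr3, Epx and Prg2 lay below it with means over the arrays of 4.36, 3.62, 4.35 and 3.31. The macrophage gene C1qa read 12.12, and the fibroblast genes Dcn and Col1a1 read 12.33 and 10.60, so the label of the sorted cells was not borne out by the transcripts that define eosinophils. The word eosinophils stands below for the sorted samples. For the targeted gene, Klf3, the array holds 6 probe sets. In Klf3-/- arrays 5 of them were above and 1 was below every WT array, with log2 differences from -1.01 to 2.83. No source used here places them against the deleted stretch, so the genotype stays unchecked by them. Since the samples hold many cells, more cells of a type and more RNA per cell cannot be told apart.

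Penk was the 1 member whose Klf3-/- arrays all lay above the WT arrays after normalisation, and the values of the 8 enzymes overlapped between the genotypes. Of the 9 members, 8 lay above background and 7 were higher in Klf3-/- by sign. The limma test sets the difference between genotypes against each probe set's own spread, drawn toward that of all probe sets. In limma 1 of the 9 (11.1%) had an unadjusted p under 0.05, against 5.5% of all 45037 probe sets in both directions. Of all probe sets 3.1% had such a p in the higher and 2.39% in the lower direction. After Benjamini-Hochberg adjustment over all probe sets 0 members and 0 probe sets of the whole array passed in limma. The median log2 difference of the members was 0.17, beside -0.03 over all probe sets. On the values as deposited these medians were 0.35 and 0.13.

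**Figure D1:**
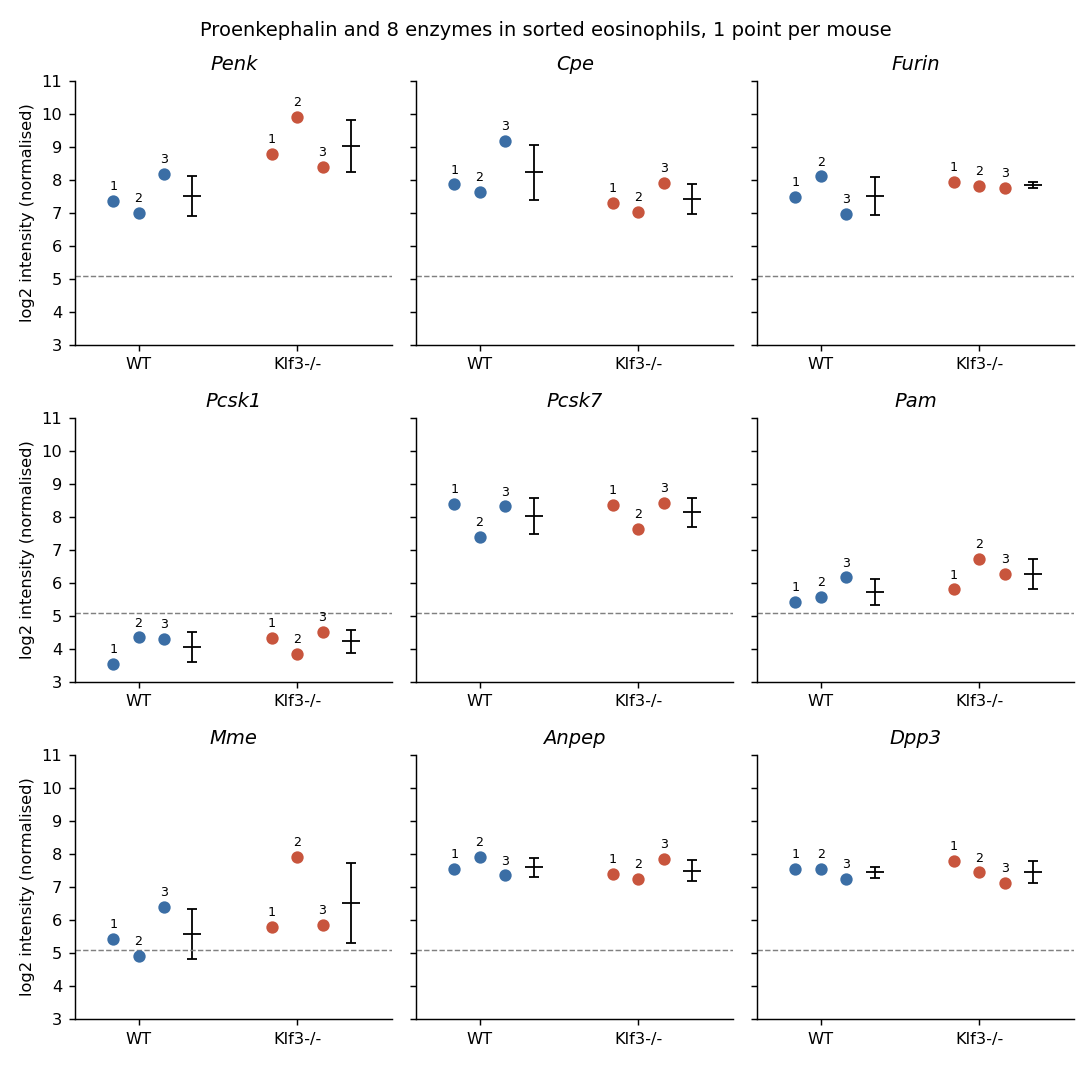
Log2 intensity after quantile normalisation (y axis) of each member in WT (blue) and Klf3-/- (red) eosinophils, 1 point per mouse with its replicate number. Horizontal bars with whiskers are the mean ± SD of 3 mice and the dashed line is the background level of 5.10. Penk is the member without overlap between the genotypes, and Pcsk1 lies below the dashed line on all 6 arrays.

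Penk encodes the precursor from which methionine- and leucine-enkephalin are cut. The deposited intensities of Penk were 141, 181 and 175 in WT mice 1 to 3, and 480, 1512 and 247 in Klf3-/- mice 1 to 3. All Klf3-/- arrays were above all WT arrays, and Klf3-/- mouse 2 stood far above the other Klf3-/- mice. The coefficient of variation of Penk was 90.3% among Klf3-/- mice and 13.3% among WT mice.

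After normalisation Penk read 7.36, 6.99 and 8.17 log2 units in WT mice 1 to 3 and 8.78, 9.91 and 8.39 in Klf3-/- mice 1 to 3. The lowest Klf3-/- mouse was thus 0.22 log2 units above the highest WT mouse, and both carry replicate number 3. The WT mean was 7.51 ± 0.60 and the Klf3-/- mean 9.03 ± 0.79 (SD, n = 3 each). Penk thus had a log2 difference of 1.52 (standard error 0.46, 95% interval 0.44 to 2.60), or 2.87-fold (1.36 to 6.05). The unadjusted p of Penk in limma was 0.0123 and its adjusted p 0.862. An exact two-sided permutation test of Penk gave p = 0.1, and the exact one-sided Mann-Whitney test named by the study's methods gave p = 0.05, each the smallest that 3 against 3 arrays can give. Of all probe sets 4.49% had every Klf3-/- array above the WT arrays, 6.51% had every one below and 11% had either.

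Within replicate numbers 1, 2 and 3 the normalised Penk difference was 1.42, 2.92 and 0.22 log2 units, and so of unequal size. It had to be positive in 3 of 3 pairs, since every Klf3-/- array lay above every WT array. Without Klf3-/- mouse 2 the log2 difference of Penk was 1.08, and over the 6 fits that each leave out 1 array it ranged from 1.08 to 1.85. With the replicate number as a block, 2 of the 9 members had an unadjusted p under 0.05 in limma, beside 7.13% of all probe sets. Penk then had an unadjusted p of 0.0302 in limma and an adjusted p of 0.679. Cpe had an unadjusted p of 0.0151 in limma and an adjusted p of 0.661. A plain analysis of variance, which borrows no spread from other probe sets, gave 0 members, both one-way and two-way with the replicate block. Penk had an unadjusted p of 0.0571 in the one-way and 0.191 in the two-way analysis of variance. Of all 45037 probe sets 2240 had an unadjusted p under 0.05 in the one-way and 2535 in the two-way analysis of variance.

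Among the processing enzymes, Cpe went the other way from Penk. It encodes carboxypeptidase E, which removes basic residues from the ends of peptides after the convertases have cut. Deposited Cpe intensities were 198, 291 and 358 in WT mice 1 to 3, and 176, 197 and 177 in Klf3-/- mice 1 to 3. As deposited, every Klf3-/- array lay below every WT array, by a narrow margin between Klf3-/- mouse 2 and WT mouse 1, and 0.244% of all probe sets did so in that direction. Together with Penk, Cpe made 2 members without overlap on that scale, where 3.86% of all probe sets had none, 3.61% of them with the Klf3-/- arrays above.

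After normalisation Cpe read 7.86, 7.62 and 9.19 log2 units in the WT mice and 7.31, 7.02 and 7.90 in the Klf3-/- mice, and the genotypes overlapped. WT mouse 3 stood highest. The means were 8.23 ± 0.85 and 7.41 ± 0.45 (SD, n = 3 each), with a log2 difference of -0.82 (standard error 0.44, 95% interval -1.86 to 0.23, adjusted p = 0.910 in limma). Cpe was lower in 3 of 3 pairs of the same number, with differences of -0.55, -0.61 and -1.29 log2 units. Without WT mouse 3 the log2 difference of Cpe was -0.33.

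Furin, the convertase of the trans-Golgi network, had deposited intensities of 152, 419 and 80.0 (WT mice 1 to 3) and of 268, 350 and 162 (Klf3-/- mice 1 to 3). The 3 WT values spanned the whole range of the Klf3-/- values. The normalised log2 difference of Furin was 0.32 (standard error 0.30, 95% interval -0.37 to 1.02, adjusted p = 0.954 in limma). It was 0.62 without WT mouse 2 (unadjusted p = 0.0359 in limma) and 0.05 at the lowest over the fits that leave out 1 array.

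Pcsk1, the convertase best known for cutting prohormones in neuroendocrine cells, lay below background on all 6 arrays, at 10.4 to 26.4 deposited units and a mean of 4.15 log2 units. The interval of its log2 difference was -0.53 to 0.86, and its values, here and in the closing limits, are those of a probe set that was not above background. Pcsk7, a convertase made by most cells, had deposited intensities of 286, 247 and 194 (WT) and of 360, 310 and 254 (Klf3-/-). The genotypes overlapped at Klf3-/- mouse 3. After normalisation the log2 difference of Pcsk7 was 0.11 (standard error 0.34, 95% interval -0.70 to 0.91), and its sign turned when array weights were used or when any of 3 arrays was left out.

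Pam encodes the enzyme that amidates peptide ends. As deposited it read 37.0, 63.1 and 47.9 across the WT mice and 61.4, 159 and 61.0 across the Klf3-/- mice. Klf3-/- mouse 2 was highest and the genotypes overlapped at WT mouse 2. The normalised log2 difference of Pam was 0.54 (standard error 0.31, 95% interval -0.18 to 1.26, adjusted p = 0.910 in limma). Without Klf3-/- mouse 2 it was 0.32. Its unadjusted p in limma was 0.0465 without WT mouse 3 and 0.0440 without Klf3-/- mouse 1.

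Mme encodes neprilysin, the cell surface peptidase classically called enkephalinase, and was the degrading enzyme with the widest spread. Deposited Mme intensities were 36.9, 38.9 and 55.2 in WT mice 1 to 3, and 61.0, 375 and 46.6 in Klf3-/- mice 1 to 3. Klf3-/- mouse 2 alone stood apart, while Klf3-/- mouse 3 lay below WT mouse 3. After normalisation the log2 difference of Mme was 0.95 (standard error 0.63, 95% interval -0.55 to 2.44, adjusted p = 0.929 in limma), and without Klf3-/- mouse 2 it was 0.25. Within replicate numbers 1 to 3 the Mme differences were 0.37, 3.01 and -0.54 log2 units. Mme lay below background on 1 WT array.

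Anpep encodes aminopeptidase N, which removes the first tyrosine of enkephalins. In WT mice its deposited intensities were 160, 362 and 103, and in Klf3-/- mice 185, 234 and 172, all within the WT range. The log2 difference of Anpep was -0.11 after normalisation (95% interval -0.68 to 0.47) and 0.11 as deposited. Dpp3, a cytosolic dipeptidyl peptidase that cuts enkephalins, gave 161, 272 and 95.5 in WT and 245, 269 and 106 in Klf3-/- mice, also within the WT range. Its log2 difference was 0.0054 (95% interval -0.54 to 0.55). With 3 arrays a genotype, differences in Anpep or Dpp3 within these intervals were not excluded.

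**Figure D2:**
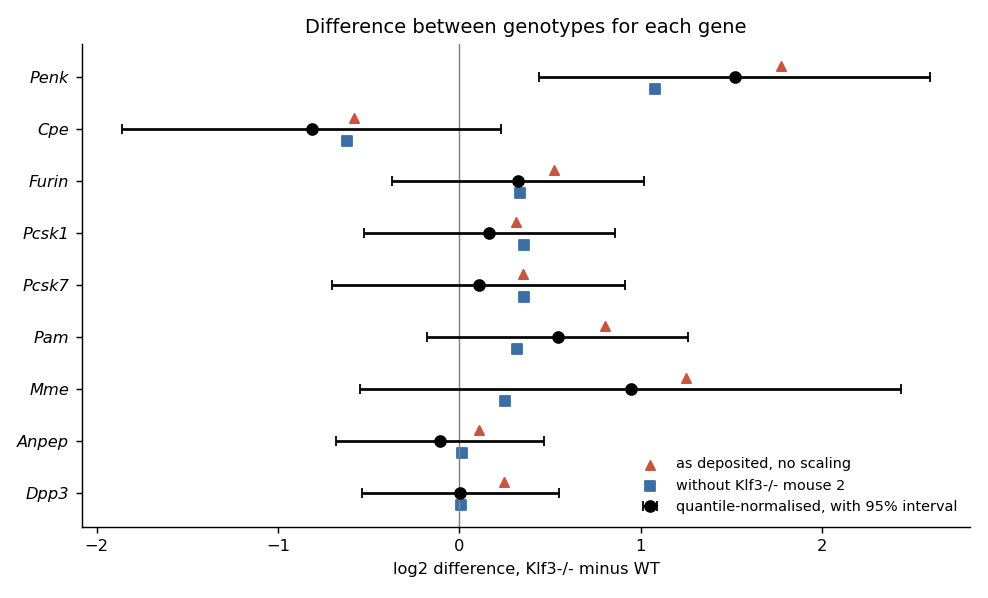
Log2 difference, Klf3-/- minus WT (x axis), of each member. Black points with bars are the limma estimates after quantile normalisation with 95% intervals (n = 3 mice each), red triangles the values as deposited and blue squares the estimates without Klf3-/- mouse 2. The interval of Penk, 0.44 to 2.60, is the one that leaves out 0, and the Mme estimate falls from 0.95 to 0.25 without that mouse.

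The ratio of Penk to an enzyme within an array does not change when an array is multiplied by a constant, so it was taken from the deposited values, after the single values had been seen, for the 7 enzymes above background. The level of such a ratio has no meaning of its own, since probe sets differ in brightness. The log2 ratio of Penk to Cpe was -0.49, -0.68 and -1.03 across the WT mice and 1.45, 2.94 and 0.47 across the Klf3-/- mice. All Klf3-/- ratios were above all WT ratios with a gap of 0.97, which had to be so, since as deposited Penk was higher and Cpe lower in every Klf3-/- array. Penk was also higher relative to Pcsk7, Pam and Dpp3 in every Klf3-/- mouse, with gaps of only 0.10, 0.09 and 0.09 log2 units, and relative to Furin, Mme and Anpep the genotypes overlapped. Thus 4 of 7 ratios had no overlap, and against all 11114 other genes above background 63.7% of Penk ratios had none in that direction. The share of the enzymes was near that of all genes and is no result about them. After quantile normalisation, which can move such ratios, 4 of 7 again had none, beside 62.3% of all genes. The mean ratio to Mme differed least between the genotypes, by 0.52 log2 units, and Mme lay below background in WT mouse 2.

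**Figure D3:**
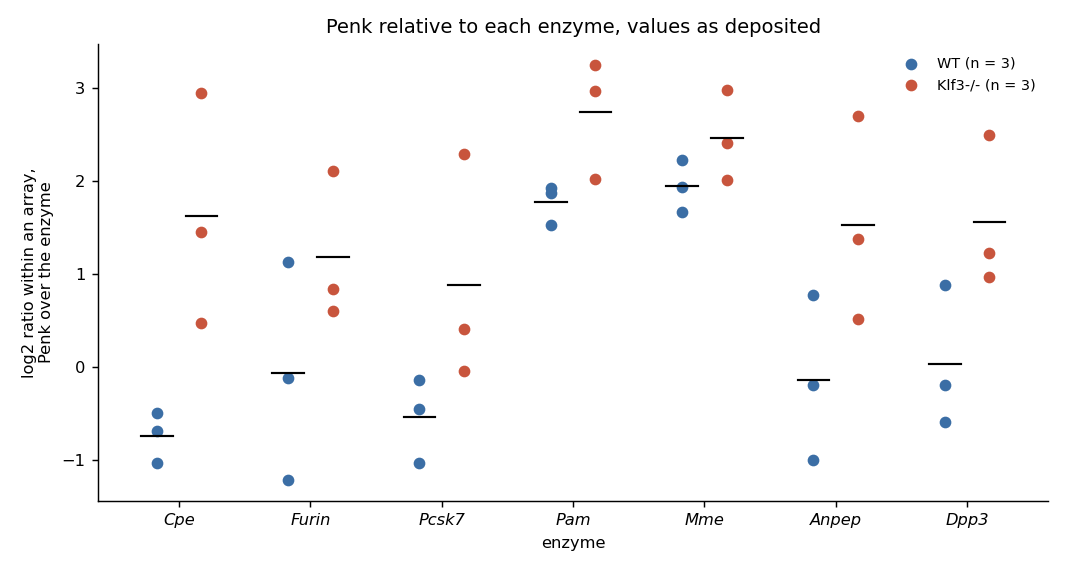
Log2 ratio of Penk to each of the 7 enzymes above background within an array, from the values as deposited (y axis), in WT (blue) and Klf3-/- (red) mice with group means as bars. The ratio to Cpe has the widest gap between genotypes, 0.97 log2 units, and the ratios to Furin, Mme and Anpep overlap.

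The arrays also ordered some members alike. Penk, Pam and Mme were each highest in Klf3-/- mouse 2, which made 3 of 9 members. Profiles over the 6 arrays were compared with that of Penk by the root mean square difference of log2 values, each centred on its own mean, for 11114 other genes above background. The closest were Ccn5 (0.217), a secreted matricellular protein, Ackr3 (0.229), a scavenger receptor for chemokines and opioid peptides, the sodium channel gene Scn7a (0.234), the membrane protein gene Megf9 (0.236) and the collagen gene Col5a3 (0.238). Among the enzymes Mme came 91st (0.414) and Pam 331st (0.617), whereas Dpp3, Furin, Pcsk7 and Anpep came between 4366th and 8268th. Cpe came 10528th (1.37). These ranks rest on 6 arrays and carry no test.

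Markers of stromal fibroblasts and preadipocytes moved over the arrays in a similar order. Of 20 such markers 18 were measured and 17 lay above background. In limma 9 were higher in Klf3-/- at an unadjusted p under 0.05 and 0 lower, beside 3.1% and 2.39% of all probe sets. Beside -0.04 over all genes, the median log2 difference of these markers was 0.96. Their mean log2 intensity was 7.85, 8.08 and 8.44 in WT mice 1 to 3 and 8.78, 9.65 and 8.78 in Klf3-/- mice 1 to 3, highest in Klf3-/- mouse 2. Summed over the list the linear intensity was 13590 to 23489 in WT and 23812 to 38134 in Klf3-/-. Single markers were unequally like Penk. Dcn, a proteoglycan of fibroblasts, came 185th with a root mean square difference of 0.512, and Col1a1, a fibrillar collagen, came 1330th (0.824) and was highest in WT mouse 3. The gate the study describes for eosinophils selects live cells of high side scatter that carry Siglec-F, F4/80, CD11b and CD45. Fibroblasts and preadipocytes lack CD45. Its gene Ptprc read 11.17 log2 units and Dcn 12.33, and neither value shows which cells it came from. Whether cells outside the gate were in the samples was not tested. The linear intensity summed over 6 mast cell markers was also highest in Klf3-/- mouse 2, at 7116. It was 591 and 1131 in the other Klf3-/- mice and 285 to 3438 in WT mice. Of these markers Kit was instead highest in WT mouse 2, at 421 deposited units beside 398 in Klf3-/- mouse 2. Fcer1a lay below background at a mean of 4.09 log2 units. By sign 6 of 6 mast cell genes stood above WT, and their median log2 difference was 1.09. In limma 0 of them had an unadjusted p under 0.05, and 3 did with the replicate block. The part of either marker list in the Penk, Pam and Mme values was not tested.

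**Figure D4:**
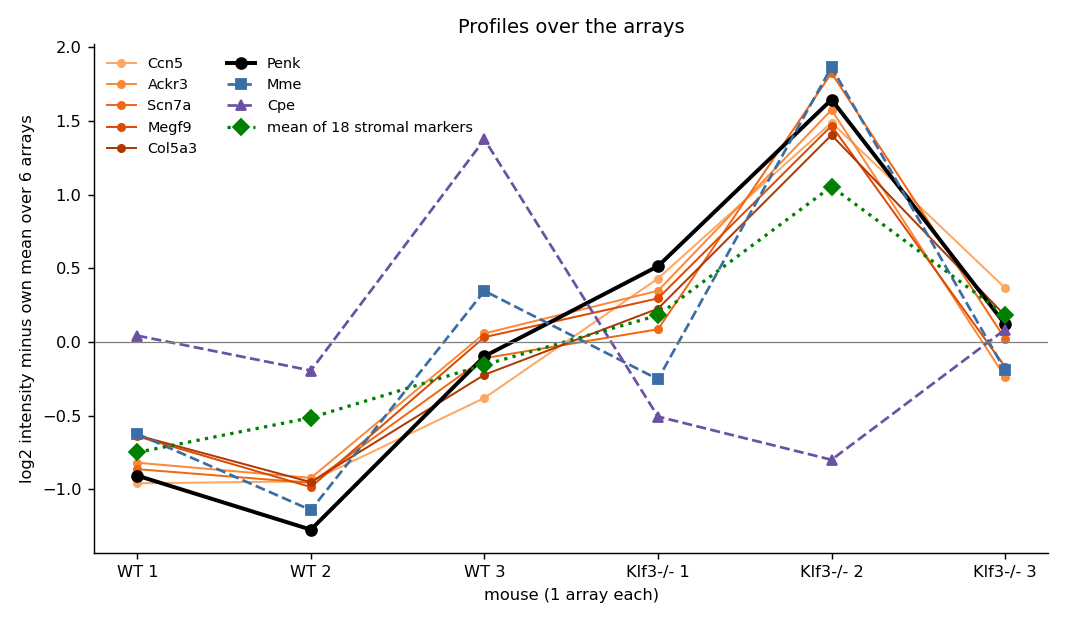
Log2 intensity minus the gene's own mean over the 6 arrays (y axis) for each mouse (x axis). Black is Penk, orange and brown lines are the 5 genes most like it, dashed lines are Mme and Cpe, and green diamonds are the mean of 18 stromal markers. All but Cpe peak in Klf3-/- mouse 2, and Cpe peaks in WT mouse 3.

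Most opioid propeptides and receptors beside Penk lay below background. Of 9 genes 8 were measured and 2 lay above background, Ackr3 and Oprd1. By sign 1 was higher and 7 were lower in Klf3-/-, 0 had an unadjusted p under 0.05 in limma, and their median log2 difference was -0.09 (0.07 as deposited), beside -0.04 over all genes. The other opioid precursor genes Pdyn, Pomc and Pnoc lay below background with means of 4.52, 5.03 and 4.51 log2 units. Oprd1, the delta opioid receptor at which enkephalins act, had a log2 difference of -0.69 (standard error 0.64, adjusted p = 0.954 in limma), and its highest array was WT mouse 2 with a deposited intensity of 334 against 24.7 to 112 elsewhere. Oprm1, the mu opioid receptor, and Oprl1, the nociceptin receptor, lay below background with log2 differences of -0.32 and -0.17, and their several probe sets differed in sign.

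Ackr3 followed Penk closely over the arrays. Its deposited intensities were 167, 265 and 217 in WT mice 1 to 3, and 478, 1605 and 216 in Klf3-/- mice 1 to 3. Klf3-/- mouse 2 was far above all others and Klf3-/- mouse 3 was no higher than WT mouse 3. The log2 difference of Ackr3 was 1.12 (standard error 0.49, 95% interval -0.03 to 2.27, adjusted p = 0.904 in limma), and it ranged from 0.62 to 1.52 over the fits without 1 array.

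Of 21 further genes for prohormone processing, 19 were measured and 13 lay above background. By sign 13 were higher and 6 lower in Klf3-/-, with a median log2 difference of 0.15, beside -0.04 over all genes. As deposited the median was 0.31, beside 0.13 over all probe sets. At an unadjusted p under 0.05 in limma 2 of the 19 were higher and 0 lower, and 0 passed after adjustment. Of all probe sets 3.1% were higher and 2.39% lower at that p in limma. Qpct, the glutaminyl cyclase that forms pyroglutamate at peptide ends, read 29.5, 45.3 and 29.5 across the WT mice and 63.2, 247 and 68.6 across the Klf3-/- mice as deposited. All Klf3-/- arrays were above all WT arrays, and mouse 2 was highest, as for Penk. Its log2 difference was 1.35 (standard error 0.36, 95% interval 0.49 to 2.21, adjusted p = 0.834 in limma).

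Cpxm2, a member of the carboxypeptidase E family without known catalytic activity, read 60.0, 106 and 85.6 across the WT mice and 167, 394 and 150 across the Klf3-/- mice as deposited, without overlap. The log2 difference of Cpxm2 was 1.14 (standard error 0.32, adjusted p = 0.844 in limma), and its other probe set had 0.58. Its relative Cpxm1 had 0.74 and the convertase Pcsk6 had 0.44 (adjusted p = 0.910 each in limma). The lysosomal protease Ctsl and the carboxypeptidase Cpd, the brightest of the list, had log2 differences of 0.22 and -0.07 after normalisation, and their probe sets differed in sign. Of the neuroendocrine granule genes, Chga, Chgb, Scg2 and Scg5 lay below background. Scg3 lay above it, at a mean of 5.94 log2 units and with a log2 difference of -0.07. Carboxypeptidase Z (Cpz), singled out after its value was seen, had the lowest difference of the list, -1.09 (standard error 0.67, adjusted p = 0.918 in limma).

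Of 13 further peptidases listed for opioid peptide cleaving, 12 were measured and 11 lay above background. Whether each of them cuts enkephalins or other opioid peptides was not tested. By sign 7 stood higher in Klf3-/- and 5 lower, and the median log2 difference was 0.19, beside -0.04 over all genes. As deposited the median was 0.39, beside 0.13 over all probe sets. An unadjusted p under 0.05 in limma was found for 2 on the higher side and 0 on the lower side. The shares of all probe sets were 3.1% and 2.39%. After adjustment 0 of the 12 passed. Enpep, aminopeptidase A, read 43.5, 129 and 116 across the WT mice and 115, 1369 and 706 across the Klf3-/- mice as deposited. Klf3-/- mice 2 and 3 were far above the rest, while Klf3-/- mouse 1 fell between WT values. The log2 difference of Enpep was 2.21 (standard error 0.89, 95% interval 0.11 to 4.31, adjusted p = 0.898 in limma). Mmel1, a relative of neprilysin, had a log2 difference of 0.67 but lay below background at a mean of 4.25 log2 units.

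Ace, which cleaves enkephalins, had a log2 difference of 0.80 (standard error 0.36, 95% interval -0.04 to 1.65, adjusted p = 0.910 in limma). Thimet oligopeptidase (Thop1) had 0.62, with the opposite sign for its other probe set and a lowest value of -0.10 when 1 array was left out. The brightest of the list, Ece1 and Lap3, had -0.31 and -0.40.

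**Figure D5:**
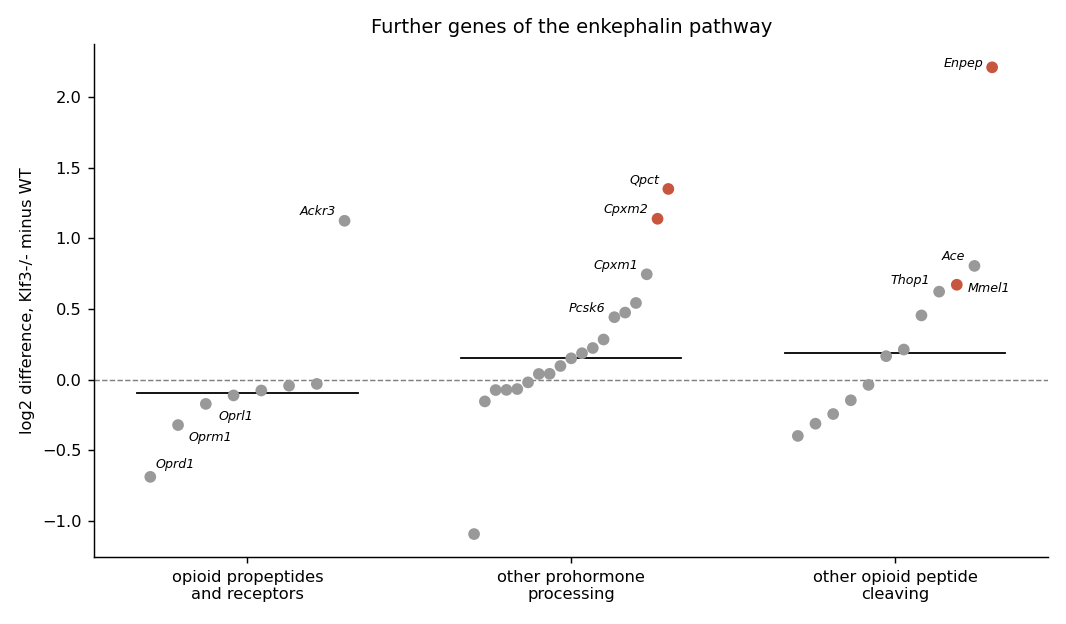
Log2 difference after quantile normalisation, Klf3-/- minus WT (y axis), 1 point per gene, ordered by value within each list. The lists hold 8 opioid propeptide and receptor genes, 19 further prohormone processing genes and 12 further peptidases listed for opioid peptide cleaving. Red points have an unadjusted p under 0.05 in limma (n = 3 mice each), black bars are list medians of -0.09, 0.15 and 0.19, and 0 genes pass after adjustment.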

How the data were processed

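RNA of eosinophils sorted from subcut SVF was amplified and hybridised to Affymetrix HT MG-430PM arrays, 3 per genotype. Array processing by the authors used Partek Genomics Suite, with RMA named, and they deposited intensities on a linear scale for 45037 probe sets (28898 with 1 gene symbol, 551 with several and 15588 with none). No source used here gives the RMA steps or a genome build. Since array medians differed, log2 values were quantile-normalised and fitted with limma 3.58.1 in R 4.3.3 with genotype as the term. Benjamini-Hochberg adjustment covered the whole table, at a threshold of 0.05. The members and gene lists were chosen with earlier results of these data known. Where a list gene had several probe sets the brightest stood for it. Named were all members, the 4 genes with the smallest p and the 2 brightest of each list, fixed cell markers and the 5 genes most like Penk. A few genes were named outside this rule, such as Cpz, the other opioid precursor genes and the granule genes.

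The depth of an array has no count, and the number of arrays limits the precision. In 5 simulations 55.8% of probe sets shifted by 2 log2 units and 0% of those shifted by 1 were recovered after adjustment in limma. At an unadjusted p under 0.05 in limma 96.9% and 82.3% were recovered. At 2 log2 units a mean of 5.8 unshifted probe sets also passed after adjustment. The shifted probe sets were drawn at random, with independent normal noise at each one's own spread and nothing shared between arrays. These rates are therefore not those of Penk or any other single member. Labels call the mice litter-matched, and arrays of the same number deviated together (r = 0.17, 0.23 and 0.21), so a replicate block was an alternative. The others were values as deposited, median centring, a pseudocount of 32, trend, robust fitting, array weights, 2 plain analyses of variance, a filter at the olfactory receptor level, the mean of probe sets, leaving out each array and the ratio of Penk to each enzyme on both scales, which was chosen after seeing the data. The study names a second factor of its analysis of variance in no source used here.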

Additional observations from a re-analysis of the deposited data

How the results depend on the processing

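Over 152 recomputed member differences 142 kept their sign, 10 turned and 0 passed after adjustment. Of the 152, 62 came from settings that leave the difference as it was, so their sign could not turn. Among these settings, the mean of probe sets repeats the main fit for the members and changes neither difference nor error. Penk, Cpe, Furin, Pam and Mme kept theirs in all. When each array was left out in turn, log2 differences ranged from 1.08 to 1.85 for Penk, -1.12 to -0.33 for Cpe, 0.05 to 0.62 for Furin, 0.32 to 0.77 for Pam, 0.25 to 1.36 for Mme, -0.095 to 0.36 for Pcsk1, -0.21 to 0.36 for Pcsk7, -0.28 to 0.050 for Anpep and -0.17 to 0.17 for Dpp3. Pcsk1 was -0.095 without WT mouse 1, Pcsk7 -0.039 with array weights, -0.21 without WT mouse 2, -0.0040 without Klf3-/- mouse 1 and -0.036 without Klf3-/- mouse 3. Anpep was 0.11 as deposited, 0.050 without WT mouse 2 and 0.016 without Klf3-/- mouse 2, and Dpp3 was -0.096 without WT mouse 3 and -0.17 without Klf3-/- mouse 1. The causes were not tested. Members with an unadjusted p under 0.05 numbered 1 in limma, 2 with the replicate block, 0 in the one-way and 0 in the two-way analysis of variance, and 1 to 2 with an array left out. Over all probe sets 2475 had such a p, 3212 with the replicate block, 1212 as deposited, 1517 among the fewer above the olfactory receptor level and 2032 to 2695 with an array left out. After adjustment the count over all probe sets was 0 in every fit. At an unadjusted p under 0.05 the opioid propeptides and receptors had 0 to 1 genes over all settings, the further prohormone processing genes 0 to 4 and the further peptidases 0 to 3. Members without overlap numbered 1 after normalisation, beside 11% of all probe sets, and 2 as deposited, beside 3.86%. After median centring they numbered 2, Penk and Cpe as on the deposited scale. The share over all probe sets was not computed after median centring, so that count has nothing to be read against. The block changed no call after adjustment. Each member has 1 probe set, so averaging probe sets left the values as they were.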

Other observations

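A probe set annotated to both Tagln and Pcsk7, genes that lie side by side, was outside the rule for members. Its deposited intensities were 1529, 931 and 1070 in WT mice 1 to 3 and 782, 589 and 699 in Klf3-/- mice 1 to 3. As deposited all Klf3-/- arrays were thus lower, as for 0.244% of all probe sets. After normalisation the genotypes overlapped, with Klf3-/- mice 1 and 3 at 9.52 and 9.88 log2 units and WT mouse 2 at 9.22. The normalised log2 difference of this shared probe set was -0.93 (standard error 0.51, adjusted p = 0.910 in limma), while that of the Pcsk7 probe set was 0.11. Which of the genes it reads was not tested.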
